A study of Caenorhabditis elegans with 10 samples.

Results

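The 80 genes described here encode the Hedgehog-related proteins and the patched-related membrane proteins of Caenorhabditis elegans. They were taken from the array annotation by symbol: wrt, grd, grl, hog and qua for the ligand-like genes, ptc and ptr for the patched-like genes. A gene was read on its brightest probe set among those that named that gene alone. This gave 54 ligand-like genes (10 wrt, 12 grd, 30 grl, hog-1 and qua-1) and 26 patched-like genes (ptc-1, ptc-3 and 24 ptr), of 17118 named genes on the array. A further 8 genes of these families, grd-4, grd-6, grd-13, grd-15, grd-17, grl-26, grl-32 and ptc-2, were not analysed here, since no probe set listed here named them alone.

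The series compared whole young adult worms of 2 genotypes to find metabolic pathways downstream of a defect in the electron transport chain. The mutant carried gas-1(fc21), a missense allele of a complex I subunit gene, in 5 biological replicates, and the wild type was N2 (Bristol), also in 5. All animals were fed OP50 bacteria, synchronised by bleaching, and sorted by size as pools of living adults, and each pool was hybridised to 1 array. One strain stood for each genotype, and no batch or scan date was given. The p-values therefore measure the spread between these pools. In RNA from whole worms, fewer cells of a type and less RNA per cell cannot be told apart.

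In flies and vertebrates, Hedgehog is a secreted ligand that is cut from its own carboxy-terminal part, joined to cholesterol, and bound by Patched, a membrane protein with a sterol-sensing domain. Worms have no clear Smoothened, the protein that Patched restrains elsewhere, but have a large set of secreted proteins with a Hedgehog-type carboxy-terminal part or a related amino-terminal domain: the warthogs (wrt), groundhogs (grd), ground-like proteins (grl), hog-1 and qua-1. Many are made in the epidermis and other surface epithelia, and many transcripts of these families cycle with the larval molts. The patched-related proteins are known for roles in molting, cuticle formation, membrane traffic and, for ptc-1, cell division in the germ line.

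Some arrays stood apart from the rest of their genotype. Across all probe sets, wild-type replicate 1 had Pearson correlations of 0.954 to 0.974 with the rest of its group (probe sets are no independent replicates). Wild-type replicate 5 reached 0.979 with its own group and 0.982 with mutant replicate 2. Mutant replicates 4 and 5 correlated at 0.995 with each other and at 0.977 or more with the rest of the mutant group. Wild-type replicates 2 to 4 reached 0.996 with each other. Results are given over all 10 arrays and, where they rest on these arrays, without them. That choice of 4 arrays was made with these data known. The mutated gene, gas-1, was read on 2 probe sets and was higher in every mutant array than in every wild-type array (differences of 0.72, SE 0.15, limma adjusted p = 0.0108 and 0.67, SE 0.12, limma adjusted p = 0.00567). A missense allele leaves the transcript in place, so its level does not check the labels.

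Many members were at background on this array. The background was the 95th percentile of 26 control probe sets for bacterial genes, which lay between 5.83 and 6.42 on the log2 scale across arrays. Of the 80 members, 27 were above it on all 10 arrays, 25 on some and 28 on none. Over all probe sets, 47.3% were above it on all arrays and 32.2% on none. Ligand-like genes above it on all arrays numbered 18 of 54, and patched-like genes 9 of 26. The gene hog-1, the sole member of its family, was above it on no array.

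Between genotypes, few members of either class passed the test. At a limma adjusted p under 0.05, 2 of 54 ligand-like genes were called higher in the mutant and 1 lower, and 0 of 26 patched-like genes were called. Over all 22548 probe sets 11.8% were called, 7.54% higher and 4.28% lower, so the 3.75% of members called was below the share on the whole array. At an unadjusted p under 0.05, 7 ligand-like genes (4 higher, 3 lower) and 7 patched-like genes (all 7 higher) were found, against 25.3% of all probe sets (14.4% higher, 10.9% lower). The median difference, mutant minus wild type, was 0.09 for ligand-like and 0.17 for patched-like genes, and 0.00 over all probe sets. The sign was positive for 36 of 54 and 19 of 26 genes, and for 50.7% of all probe sets.

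**Figure D1:**
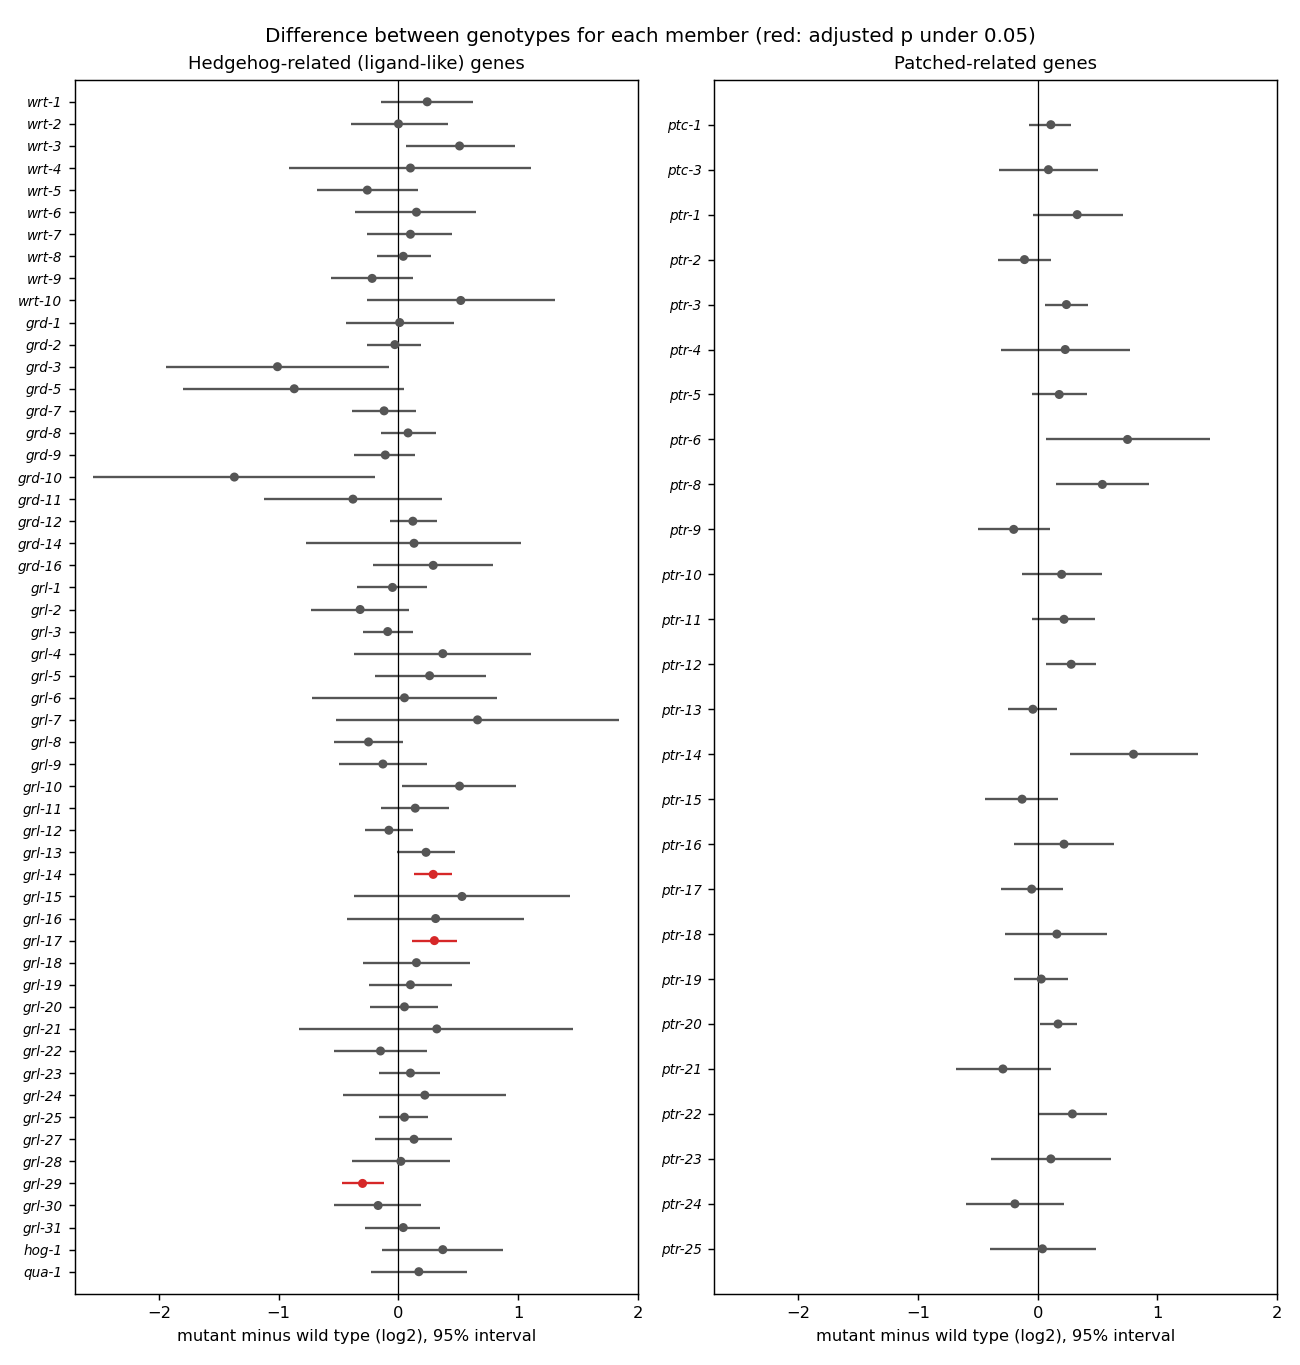
Difference between genotypes (mutant minus wild type, log2) for the 54 ligand-like genes on the left and the 26 patched-like genes on the right, with points for estimates and lines for 95% intervals. The 3 red members, grl-14, grl-17 and grl-29, were called, and the intervals of grd-3, grd-5, grd-10, grl-7 and grl-21 were among the wide ones.

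All 3 called members were ground-like genes with small differences and levels at or near background. Transcript of grl-14 was 5.71, 5.80, 5.73, 5.79 and 5.83 in mutant replicates 1 to 5 and 5.33, 5.49, 5.54, 5.63 and 5.41 in wild-type replicates 1 to 5. Every mutant array was higher than every wild-type array, with a difference of 0.29 (SE 0.07, limma adjusted p = 0.0251) and an exact permutation p = 0.00794, the smallest that 252 assignments can give. None of its 10 values was above background, so no fold is given. Values for grl-17 were 6.03, 5.86, 5.98, 5.80 and 5.81 in mutant replicates 1 to 5 and 5.65, 5.38, 5.74, 5.59 and 5.61 in wild-type replicates 1 to 5. The groups again did not overlap, with a difference of 0.30 (SE 0.08, limma adjusted p = 0.0446). Only 3 mutant arrays and 0 wild-type arrays were above background.

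The remaining called gene, grl-29, was lower in the mutant. It measured 5.45, 5.60, 5.47, 5.54 and 5.73 in mutant replicates 1 to 5 and 5.98, 5.90, 5.82, 5.85 and 5.71 in wild-type replicates 1 to 5, and the groups overlapped at mutant replicate 5 and wild-type replicate 5. The difference was −0.30 (SE 0.08, limma adjusted p = 0.0366), and no array was above background. A second, dimmer probe set of grl-29 differed by −0.04 (SE 0.10, limma adjusted p = 0.834). Each call was near the threshold and was lost in some or all fits with 1 array left out. In those fits grl-17 passed in none of 10 (limma adjusted p = 0.0509 to 0.103), with differences of 0.25 to 0.34. The limma adjusted p was 0.0263 to 0.061 for grl-14 and 0.0186 to 0.0922 for grl-29. Their differences were 0.26 to 0.33 and −0.34 to −0.26. Over all 80 members, 3 (grl-14, grl-17 and ptr-14) had groups that did not overlap, or 3.75%, against 12.9% of all probe sets.

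The patched homologues were above background on every array and did not pass the test. Transcript of ptc-1, a patched homologue needed for cell division in the germ line, was 10.33, 10.39, 10.37, 10.12 and 10.29 in mutant replicates 1 to 5 and 10.14, 10.06, 10.21, 10.23 and 10.32 in wild-type replicates 1 to 5. The groups overlapped within a narrow range, with means of 10.30 ± 0.11 (SD, n = 5) for mutant arrays and 10.19 ± 0.10 (SD, n = 5) for wild-type arrays and a difference of 0.11 (SE 0.08, limma adjusted p = 0.457). Its 95% interval ran from −0.07 to 0.28, short of a 2-fold change in either direction, and its dimmer probe set differed by 0.10 (SE 0.10). For ptc-3, the other patched homologue, values were 6.26, 6.58, 6.58, 7.04 and 7.08 in mutant replicates 1 to 5 and 7.03, 6.64, 6.28, 6.39 and 6.76 in wild-type replicates 1 to 5. Mutant replicates 4 and 5 and wild-type replicate 1 were the highest of the 10, and the difference was 0.09 (SE 0.19, limma adjusted p = 0.827), with a 95% interval of −0.32 to 0.50.

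The ligand-like genes that stand alone in their families also did not pass. For qua-1, a Hedgehog-related gene required for molting, the arrays gave 6.56, 6.39, 6.30, 6.77 and 6.41 in mutant replicates 1 to 5 and 7.0, 6.07, 6.04, 6.35 and 6.12 in wild-type replicates 1 to 5. Wild-type replicate 1 was the highest, and the difference was 0.17 (SE 0.18, limma adjusted p = 0.63). The single hog gene, which has the Hedgehog-type carboxy-terminal part, was 4.76, 4.90, 4.91, 5.77 and 5.44 in mutant replicates 1 to 5 and 5.31, 4.72, 4.45, 4.46 and 4.99 in wild-type replicates 1 to 5, a difference of 0.37 (SE 0.23, limma adjusted p = 0.365). Mutant replicates 4 and 5 were highest and wild-type replicate 1 next, all below background.

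Many ligand-like genes varied widely among arrays of one genotype. The SD within genotype was over 0.5 on the log2 scale for 14 of 54 ligand-like genes (25.9%), for 1 of 26 patched-like genes (3.85%) and for 6.51% of all probe sets. Without the 4 arrays that stood apart, it was over 0.5 for 1 ligand-like gene, 0 patched-like genes and 0.497% of all probe sets. By family, 5 of 12 grd, 7 of 30 grl and 2 of 10 wrt genes had an SD over 0.5. The members described from here on were chosen after their values were seen.

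**Figure D2:**
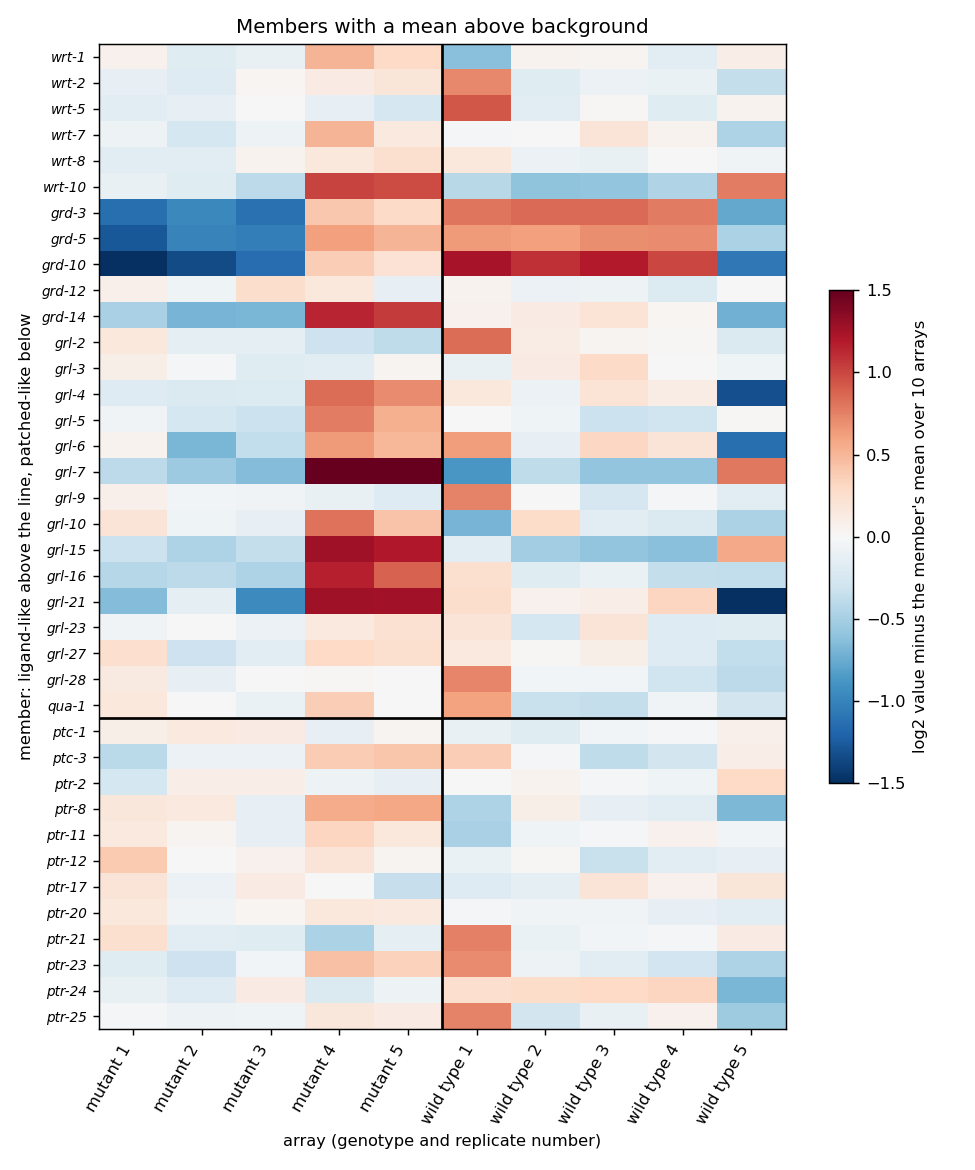
Deviation of each log2 value from its gene's mean over 10 arrays, for the 26 ligand-like (upper) and 12 patched-like (lower) genes whose mean was above background, with arrays in columns and colours that saturate at ±1.5. Mutant replicates 4 and 5, wild-type replicate 1 and wild-type replicate 5 carry most of the strong colours, and grd-3, grd-5 and grd-10 separate mutant replicates 1 to 3 from wild-type replicates 1 to 4.

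The groundhog genes grd-3, grd-5 and grd-10 had the lowest differences of all members and did not pass. For grd-3 the values were 8.92, 9.08, 8.93, 10.45 and 10.33 in mutant replicates 1 to 5 and 10.85, 10.90, 10.90, 10.83 and 9.28 in wild-type replicates 1 to 5. Wild-type replicates 1 to 4 lay together at the top, mutant replicates 4 and 5 just under them, and wild-type replicate 5 sat with mutant replicates 1 to 3. Means were 9.54 ± 0.78 (SD, n = 5) for mutant arrays and 10.55 ± 0.71 (SD, n = 5) for wild-type arrays, and the difference of −1.01 (SE 0.42, limma adjusted p = 0.156) had a 95% interval of −1.94 to −0.08.

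The gene grd-10, the adjacent protein-coding gene to grd-3 on chromosome IV of the reference WBcel235, showed the same order. It gave 5.46, 5.67, 5.87, 7.38 and 7.22 in mutant replicates 1 to 5 and 8.24, 8.10, 8.20, 8.01 and 5.93 in wild-type replicates 1 to 5, a difference of −1.37 (SE 0.53, limma adjusted p = 0.13). Mutant replicates 1 to 3 and wild-type replicate 5 were at or below background, and the other 6 arrays were above it. On chromosome V, grd-5 measured 7.89, 8.16, 8.12, 9.78 and 9.67 in mutant replicates 1 to 5 and 9.80, 9.77, 9.86, 9.87 and 8.68 in wild-type replicates 1 to 5, and its difference was −0.87 (SE 0.42, limma adjusted p = 0.227). Wild-type replicate 5 lay between mutant replicates 1 to 3 and the other wild-type arrays, and mutant replicates 4 and 5 lay with the latter.

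On the 6 remaining arrays, mutant replicates 1 to 3 against wild-type replicates 2 to 4, these 3 genes were lower in the mutant. The differences were −1.90 for grd-3 (SE 0.07, 3.73-fold, limma adjusted p = 3.17e-06) and −1.78 for grd-5 (SE 0.09, 3.43-fold, adjusted p = 1.39e-05). For grd-10 the difference was −2.43 (SE 0.11, adjusted p = 9.01e-06). The 3 mutant arrays were not above background. With them set at background, the means differed 4.68-fold or more, an estimate that leaves out the spread between arrays. The p-values on these 6 arrays, and in the fits below that leave out some of the other 4, come from arrays chosen with the data in view. The 3 genes were also chosen after their values were seen, so none of these fits is an independent test. Without mutant replicates 4 and 5 alone, all 3 genes also passed, at −1.58, −1.54 and −2.03 (limma adjusted p = 0.0358, 0.0115 and 0.0476 for grd-3, grd-5 and grd-10), where 8.63% of all probe sets were called (5.13% higher, 3.49% lower). Without wild-type replicate 5 alone, grd-3 (−1.33) and grd-10 (−1.82) passed at limma adjusted p = 0.0301 and 0.0145 and grd-5 (−1.10) did not (0.109), where 15.4% of all probe sets were called (8.28% higher, 7.14% lower). With arrays weighted by their fit, in which 24.4% of all probe sets were called (13.2% higher, 11.2% lower), grd-3, grd-5 and grd-10 passed at limma adjusted p = 0.00166, 0.00423 and 0.00121. Without wild-type replicates 1 and 5, grd-10 passed (−1.78, limma adjusted p = 0.0314) and grd-3 (−1.33, 0.0528) and grd-5 (−1.11, 0.156) did not. Of 21 alternative fits, grd-3 passed in 4, grd-5 in 3 and grd-10 in 5.

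The mean level of sperm markers was also highest in wild-type replicates 1 to 4 and intermediate in mutant replicates 4 and 5. The mean log2 level of 18 measured sperm markers was 5.66, 5.70, 5.72, 6.33 and 6.35 in mutant replicates 1 to 5, and 6.89, 6.87, 6.87, 6.83 and 5.90 in wild-type replicates 1 to 5. Their summed log2 level ranged from 101.9 to 114.2 in the mutant and from 106.2 to 124.0 in the wild type, and none was listed at 0. Single markers differed in this. Levels of msd-4 were 5.75 to 5.82 in mutant replicates 1 to 3 and 11.25 to 11.31 in wild-type replicates 1 to 4. For spe-6 the same arrays gave 5.93 to 6.30 and 5.65 to 5.99. The median difference over the 18 markers was −0.20. Of the 18, 0 rose and 4 fell, ssp-16 most (−1.76, SE 0.48, limma adjusted p = 0.0408). Over all probe sets, 7.54% were called higher and 4.28% lower. The part of the sperm markers in the groundhog values was not tested.

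**Figure D3:**
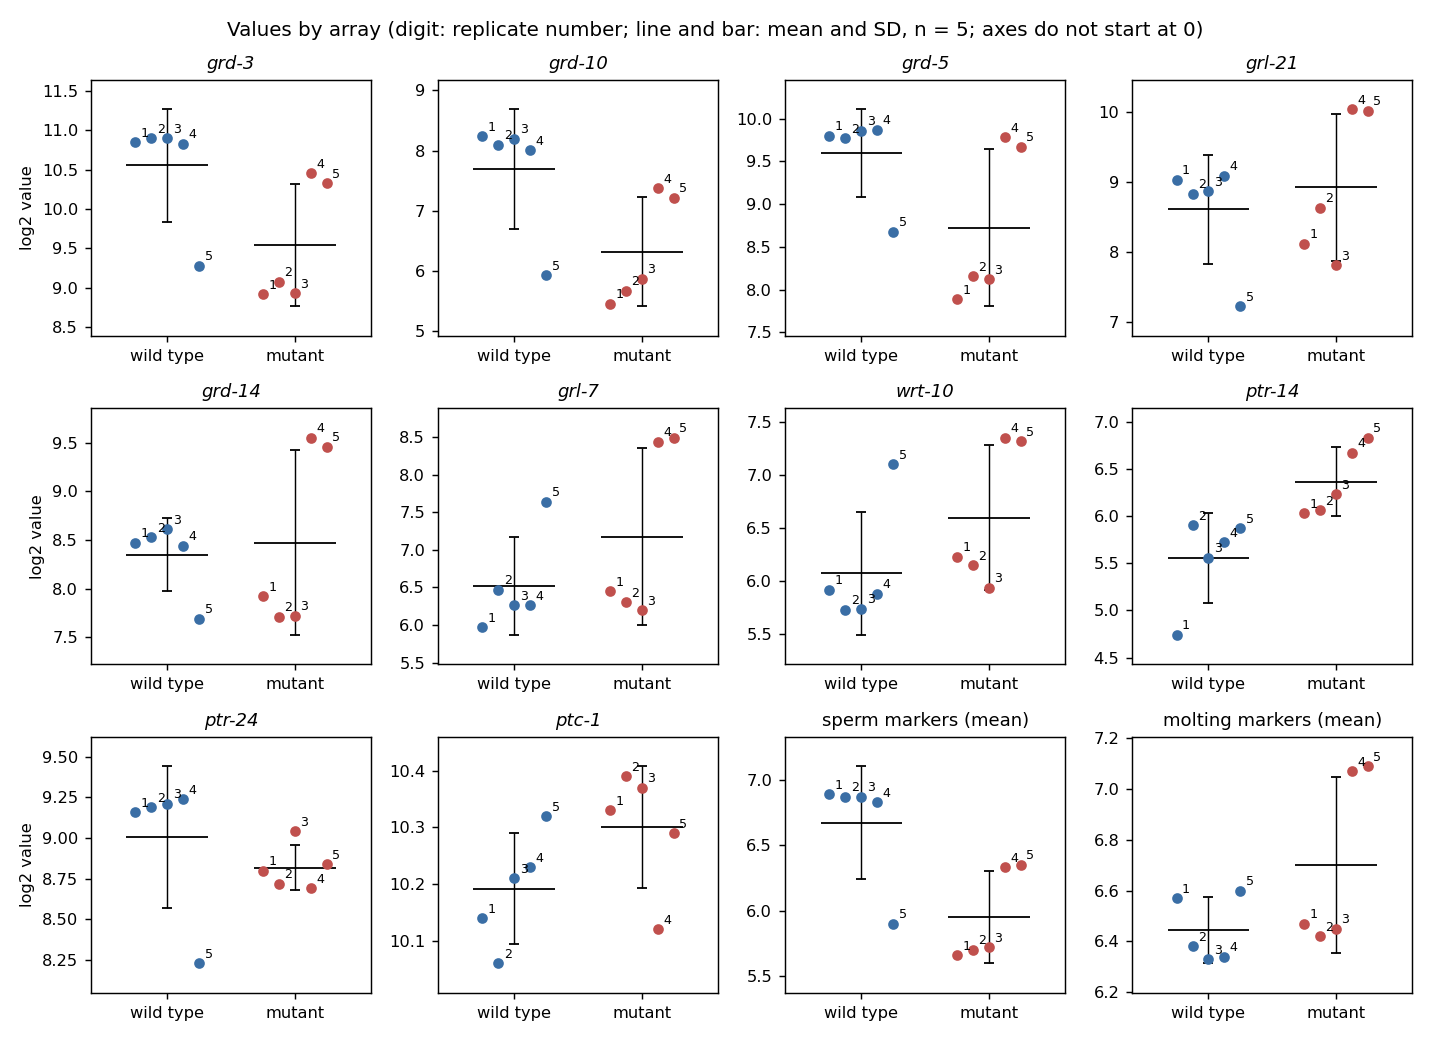
Log2 values by array for 10 members and the mean of the sperm and molting marker lists, with wild type in blue, mutant in red, replicate numbers beside the points, and a line and bar for mean and SD (n = 5). In grd-3, grd-10 and grd-5, wild-type replicate 5 lies nearer to mutant replicates 1 to 3 than to the other wild-type arrays. The same holds for the mean of the sperm markers (5.90 against 5.66 to 5.72), while ptc-1 stays within 10.06 to 10.39.

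A second pattern was seen in grd-14, grl-21, grl-4 and grl-6, which were high in mutant replicates 4 and 5 and low in wild-type replicate 5 (grl-6 was as high in wild-type replicate 1). For grl-21 the arrays gave 8.12, 8.63, 7.81, 10.04 and 10.02 in mutant replicates 1 to 5 and 9.03, 8.83, 8.87, 9.09 and 7.22 in wild-type replicates 1 to 5. Background from this worm links grl-21 and ptr-24 to a signal by which bacterial metabolites alter mitochondrial dynamics and fat storage. Its difference was 0.32 (SE 0.52, limma adjusted p = 0.767), with a 95% interval of −0.83 to 1.46, wide enough to hold a 2-fold rise.

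The groundhog gene grd-14 gave 7.92, 7.71, 7.72, 9.55 and 9.46 in mutant replicates 1 to 5 and 8.47, 8.53, 8.61, 8.44 and 7.69 in wild-type replicates 1 to 5. Its means were nearly equal, with a difference of 0.13 (SE 0.40, limma adjusted p = 0.892), although the mutant arrays spanned 7.71 to 9.55. Without the 4 arrays the sign turned for both genes, to −0.74 for grd-14 (SE 0.09, limma adjusted p = 0.00104) and −0.74 for grl-21 (SE 0.20, adjusted p = 0.0379). For grl-4 the values were 8.86, 8.84, 8.85, 9.90 and 9.77 in mutant replicates 1 to 5 and 9.21, 8.97, 9.26, 9.17 and 7.74 in wild-type replicates 1 to 5, a difference of 0.37 (SE 0.33, limma adjusted p = 0.559), and it was −0.29 without the 4 arrays (adjusted p = 0.0592). The range of grl-6 was 6.30 to 7.62 in the mutant and 5.86 to 7.61 in the wild type, with a difference of 0.05 (SE 0.35, limma adjusted p = 0.953).

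Another set, grl-7, grl-15, wrt-10 and wrt-4, was high in mutant replicates 4 and 5 and in wild-type replicate 5. The same arrays were the highest for wrt-6 and for the patched-like genes ptr-1, ptr-4 and ptr-18, at levels mostly below background. Transcript of wrt-10, a warthog gene reported to act with ptc-1 and ptr-2 in oocyte ageing, was 6.23, 6.15, 5.94, 7.35 and 7.32 in mutant replicates 1 to 5 and 5.92, 5.73, 5.74, 5.88 and 7.10 in wild-type replicates 1 to 5. Those 3 arrays read 7.10 to 7.35 and the other 7 read 5.73 to 6.23, so the groups overlapped widely at a difference of 0.52 (SE 0.35, limma adjusted p = 0.417). Its neighbour on chromosome II, wrt-1, varied less, from 6.94 to 7.64 in the mutant and 6.50 to 7.22 in the wild type.

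The brightest probe set of grl-7 gave 6.45, 6.30, 6.20, 8.44 and 8.49 in mutant replicates 1 to 5 and 5.97, 6.47, 6.26, 6.26 and 7.64 in wild-type replicates 1 to 5, a difference of 0.66 (SE 0.53, limma adjusted p = 0.511). A second probe set of grl-7 showed 7.10 and 7.09 in mutant replicates 4 and 5, but 6.40 in wild-type replicate 5, against 5.84 to 6.37 elsewhere. For grl-15 the values were 6.63, 6.49, 6.60, 8.23 and 8.16 in mutant replicates 1 to 5 and 6.79, 6.43, 6.37, 6.33 and 7.53 in wild-type replicates 1 to 5, and for wrt-4 they were 5.06, 5.04, 4.75, 6.20 and 6.48 in mutant replicates 1 to 5 and 5.05, 5.04, 5.12, 4.89 and 6.93 in wild-type replicates 1 to 5. Neither gene passed (limma adjusted p = 0.479 and 0.927). Another ground-like gene, grl-16, was high in mutant replicates 4 and 5 only, at 9.21 and 8.93 against 7.58 to 8.28 on the other 8 arrays.

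The mean levels of molting and epidermal markers were high on the same mutant arrays, though not every marker was. The mean level of 26 molting genes was 7.07 and 7.09 in mutant replicates 4 and 5, 6.60 in wild-type replicate 5, 6.57 in wild-type replicate 1, and 6.33 to 6.47 on the other 6 arrays. Their summed log2 level was 167.0 to 184.3 in the mutant and 164.6 to 171.7 in the wild type, with none listed at 0. Among them 3 rose, pan-1 most (1.00, SE 0.11, limma adjusted p = 0.000308), and dab-1 fell (−0.48, SE 0.09, adjusted p = 0.00813). Over all probe sets, 7.54% were called higher and 4.28% lower. Neither pan-1 nor dab-1 followed the mean. Levels of pan-1 were 8.10 to 8.54 across the mutant arrays, and dab-1 was lowest in mutant replicates 4 and 5 (7.10 and 7.22). The molting gene nhr-23 was 8.73 and 8.80 there, against 8.80 to 9.22 elsewhere. The matrix gene noah-1, which is needed for molting, was 8.43 and 8.52 in mutant replicates 4 and 5 and 7.73 in wild-type replicate 5, against 6.42 to 6.97 elsewhere.

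For 25 epidermal and seam markers the mean level was 9.08 and 9.06 in mutant replicates 4 and 5, and 7.94 to 8.30 on the other 8 arrays. Summed log2 levels were 199.7 to 227.1 in the mutant and 198.5 to 207.5 in the wild type, with none listed at 0. Single markers differed. The collagen gene dpy-5 was 10.87 and 10.74 in mutant replicates 4 and 5, against 6.31 to 9.08 elsewhere. Levels of lin-26 were 10.20 and 10.34 in mutant replicates 4 and 5, against 10.13 to 10.48 elsewhere. Of the 25, only the collagen gene dpy-17 rose (1.40, SE 0.40, limma adjusted p = 0.0497) and 0 fell. Across the whole array, 7.54% of probe sets were called higher and 4.28% lower. The adult collagen gene col-19 was bright on every array, at 11.52 in wild-type replicate 5 and 12.72 to 13.02 on the others. Whether these lists account for the array patterns of the members was not tested.

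Wild-type replicate 1 was high for some warthog genes and low for others. It was the lowest of the 10 arrays for wrt-1 (6.50) and wrt-6 (5.42). Members of other families also went both ways there, with grl-28 (7.59) and ptr-25 (8.37) high and ptr-14 (4.74) low. In that array wrt-5 was 8.0, against 6.89 to 7.13 in the other wild-type arrays, and wrt-2, whose promoter is used to mark seam cells, was 8.69 against 7.62 to 7.88. The differences between genotypes were −0.26 (SE 0.19, limma adjusted p = 0.453) for wrt-5 and 0.00 (SE 0.18, limma adjusted p = 0.996) for wrt-2. Its background controls were also the highest, with a 95th percentile of 6.42. The dim gene wrt-3 was 4.62 in that array and 3.47 to 3.96 in the other wild-type arrays. Without it wrt-3 passed at 0.71 (SE 0.12, limma adjusted p = 0.00398), as it did in 4 of 21 alternative fits, but no array was above background for this gene.

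Among patched-like genes, ptr-14 had the highest difference and lay just outside the threshold. It measured 6.03, 6.06, 6.23, 6.67 and 6.83 in mutant replicates 1 to 5 and 4.74, 5.90, 5.56, 5.72 and 5.87 in wild-type replicates 1 to 5, and no wild-type array reached the lowest mutant array. The difference was 0.80 (SE 0.24, limma adjusted p = 0.0572), with an exact permutation p = 0.00794. All 5 mutant arrays and 0 wild-type arrays were above background. With its wild-type arrays set at background, ptr-14 had means that differed 1.24-fold or more, an estimate that leaves out the spread between arrays. It passed in 6 of 21 alternative fits, among them array weights (0.54, limma adjusted p = 0.0229) and the fit without wild-type replicate 5 (0.88, adjusted p = 0.0487). It did not pass under quantile normalization (adjusted p = 0.0683), median centring (0.0859) or without mutant replicates 4 and 5 (0.55, adjusted p = 0.257). On the 6 arrays the difference shrank to 0.38 (SE 0.11, adjusted p = 0.0439), or 1.1-fold or more by the same estimate. Mutant replicates 4 and 5 held its highest values and wild-type replicate 1 its lowest.

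The next differences were those of ptr-8 and ptr-6. For ptr-8 the values were 7.78, 7.76, 7.48, 8.16 and 8.19 in mutant replicates 1 to 5 and 7.14, 7.70, 7.49, 7.45 and 6.93 in wild-type replicates 1 to 5, a difference of 0.54 (SE 0.18, limma adjusted p = 0.0778) with a 95% interval of 0.15 to 0.93. Mutant replicate 3 lay within the wild-type range, and without it ptr-8 passed (0.64, limma adjusted p = 0.0462), 1 of 2 alternative fits of 21 in which it did. On the 6 arrays the difference was 0.13 (adjusted p = 0.47). Transcript of ptr-6 was below background on every array, and its probe sets differed by 0.75 (SE 0.31) and 0.48 (SE 0.19), with limma adjusted p = 0.151 and 0.128. The remaining patched-like genes with an unadjusted p under 0.05 were ptr-3 (0.24), ptr-12 (0.28), ptr-20 (0.17) and ptr-22 (0.29), and none passed.

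Neither ptr-24 nor ptr-2, both above background on every array, passed over all 10 arrays. For ptr-24 the arrays gave 8.80, 8.72, 9.04, 8.69 and 8.84 in mutant replicates 1 to 5 and 9.16, 9.19, 9.21, 9.24 and 8.23 in wild-type replicates 1 to 5. Wild-type replicate 5 was the lowest of the 10, and wild-type replicates 1 to 4 were the highest. The difference was −0.19 (SE 0.19, limma adjusted p = 0.597) over all arrays. Without wild-type replicate 5 it was −0.38 (SE 0.08, 1.31-fold lower, limma adjusted p = 0.0118), and on the 6 arrays −0.36 (SE 0.09, adjusted p = 0.0333). It passed in 3 of 21 alternative fits. For ptr-2 the values were 10.90, 11.26, 11.26, 11.09 and 11.04 in mutant replicates 1 to 5 and 11.16, 11.22, 11.14, 11.10 and 11.46 in wild-type replicates 1 to 5, a difference of −0.11 (SE 0.10, limma adjusted p = 0.563) with a 95% interval of −0.33 to 0.11. A second bright probe set of ptr-2 differed by −0.01 (SE 0.10).

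Of the 80 members, 12 were read on more than 1 probe set, and the probe sets of ptr-23 disagreed. The brightest gave 6.90, 6.77, 7.04, 7.52 and 7.42 in mutant replicates 1 to 5 and 7.79, 7.0, 6.92, 6.79 and 6.61 in wild-type replicates 1 to 5, with wild-type replicate 1 the highest. A second gave 6.22, 6.39, 6.34, 7.67 and 7.58 in the mutant and 5.94, 6.63, 6.71, 6.50 and 6.03 in the wild type, with wild-type replicate 1 the lowest. Their differences were 0.11 (SE 0.23) and 0.48 (SE 0.32), and neither passed. None of the 15 additional probe sets of members passed, against 11.8% called over all probe sets, and most of the 15 were above background on no array.

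With the 4 arrays left out, 11 of 80 members were called. On the 6 arrays, 2 ligand-like genes (grl-17 and wrt-3) were higher and 7 (grd-3, grd-5, grd-10, grd-14, grl-8, grl-21 and grl-29) lower. Among patched-like genes 1 was higher (ptr-14) and 1 lower (ptr-24). On these arrays 21.5% of all probe sets were called (10.3% higher, 11.2% lower). Median differences were 0.01 for ligand-like and 0.04 for patched-like genes, against 0.00 over all probe sets. Of the 11, grl-8, grl-17, grl-29 and wrt-3 were at or near background.

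**Figure D4:**
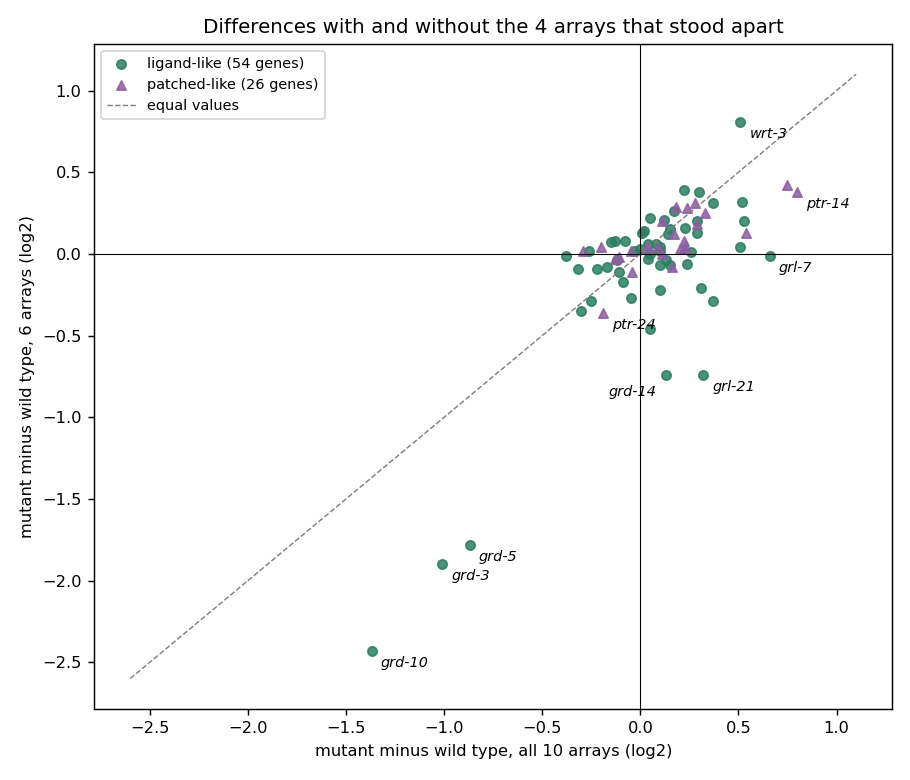
Difference between genotypes over all 10 arrays (x axis) and over 6 arrays, without wild-type replicates 1 and 5 and mutant replicates 4 and 5 (y axis), both in log2, with circles for 54 ligand-like and triangles for 26 patched-like genes. The groundhog genes grd-3, grd-5 and grd-10 lie well below the dashed line of equal values, at −1.90, −1.78 and −2.43 on the y axis, and grd-14 and grl-21 change sign.

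For 66 of the 80 members (42 ligand-like, 24 patched-like) the 95% interval lay within −1 and 1, so a 2-fold change lay outside it on that probe set, though not for the gene where the level was at background. The other 14 were wrt-4, wrt-10, grd-3, grd-5, grd-10, grd-11, grd-14, grl-4, grl-7, grl-15, grl-16, grl-21, ptr-6 and ptr-14.

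Other genes listed for the pathway or for a sterol-sensing domain gave 1 call. Of 15 measured genes, hmgr-1, the reductase of the mevalonate pathway and a protein with a sterol-sensing domain, rose, and 0 fell. Over all probe sets, 7.54% were called higher and 4.28% lower. The values of hmgr-1 were 9.06, 9.12, 9.09, 9.24 and 9.35 in mutant replicates 1 to 5 and 8.58, 8.80, 8.73, 8.73 and 8.73 in wild-type replicates 1 to 5. The difference was 0.46 (SE 0.08, limma adjusted p = 0.00365), with no overlap between groups. The Niemann-Pick relative ncr-1 (0.38, SE 0.14), the megalin relative lrp-1 (0.35, SE 0.15) and the kinase gene gsk-3 (−0.38, SE 0.13) did not pass (limma adjusted p = 0.102, 0.167 and 0.0966). The Dispatched relatives che-14 and ptd-2, the patched-related gene daf-6 and the acyltransferase gene hhat-2 were at background on all arrays. The Gli relative tra-1 averaged 9.48 ± 0.12 (SD, n = 5) on mutant arrays and 9.52 ± 0.10 (SD, n = 5) on wild-type arrays (limma adjusted p = 0.817).

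The 80 genes lie on all 6 chromosomes of WBcel235, 31 of them on chromosome V and 12 on X. Chromosome V holds 27 of the 54 ligand-like genes, and the 3 called genes are all there. Besides grd-3 and grd-10, direct neighbours among members were wrt-1 and wrt-10, grl-8 and grl-9, and the run grl-29, grl-30 and grl-31. In that run the differences were −0.30, −0.17 and 0.04, with no array above background for any of the 3. Markers of glia and of oocytes and embryos gave 0 calls of 10 and 21 measured genes, against 11.8% of all probe sets. Of these genes, 4 and 2 were above background on no array. Mean levels were 5.67 to 5.97 and 10.33 to 10.46 in the mutant and 5.44 to 5.91 and 10.31 to 10.57 in the wild type.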

How the data were processed

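Total RNA from 5 pools of gas-1(fc21) and 5 of wild-type young adults was measured on Affymetrix whole-genome arrays, 1 per pool. The authors deposited log2 values, a scale read from their range (0 to 14.2). Their software, background correction and normalization method: not given in the sources used here. Array medians lay between 6.22 and 6.61, under the range of 0.5 at which quantile normalization would have been applied, so values were used as deposited. The 77 control probe sets were left out, which left 22548. Gene names came from the platform annotation: a single gene was listed for 20766 probe sets, several for 887, and none for 895. All 80 members matched a RefSeq gene (WBcel235) of the same symbol. No coordinates are given, since no build was stated, and no sequences, since none were supplied.

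Each probe set was fitted with limma 3.58.1 in R 4.3.3 (lmFit, eBayes, 2-sided, genotype only), with Benjamini-Hochberg adjustment over all probe sets and a threshold of 0.05. Single values were also compared by exact 2-sided permutation over the 252 ways to split 10 arrays. Of 27 bacterial control probe sets, the 26 with a mean under the median of worm probe sets served as background. A value was above background if over their 95th percentile on that array. Probe sets with a shared-probe suffix (27 of the 80 members) may read related genes. No array was a duplicate (any pair differed at 99.7% of probe sets or more).

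The members and the 6 gene lists (pathway, molting, epidermis, glia, sperm, oocyte and embryo) were chosen with earlier results of these data known. Values are given for every called member and for ptc-1, ptc-3, hog-1 and qua-1. From each list the called gene with the largest change in each direction is given. All other members named, and noah-1, col-19 and the other uncalled list genes named, were chosen after their values were seen. Planned promoter motifs could not be searched without sequence. The fit was tested on simulated data. Alternatives were quantile normalization, median centring, filters on the dimmest 33% or 50%, an intensity trend, array weights, a replicate block, arrays left out, averaging a gene's probe sets, and a threshold of 0.01.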

Additional observations from a re-analysis of the deposited data

Results flagged for a closer look

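Each gene's 5 values per genotype were examined for 1 array far from the other 4, by Dixon's ratio of the gap to the whole range (above 0.71). Chance flags about 1 in 20 groups, and 19 of 160 groups were singled out here, 9 through wild-type replicate 1, 9 through wild-type replicate 5 and 1 through mutant replicate 3. Those among the genes described were as follows. In wild-type replicate 5 they were wrt-4 at 6.93 (4.89 to 5.12), wrt-10 at 7.10 (5.73 to 5.92), grd-3 at 9.28 (10.83 to 10.90), grd-5 at 8.68 (9.77 to 9.87), grd-10 at 5.93 (8.01 to 8.24), grd-14 at 7.69 (8.44 to 8.61), grl-4 at 7.74 (8.97 to 9.26), grl-21 at 7.22 (8.83 to 9.09) and ptr-24 at 8.23 (9.16 to 9.24), each given with the range of the other 4 wild-type arrays. Of these, wrt-4 and wrt-10 were high in that array and the other 7 low. In wild-type replicate 1 they were wrt-2 at 8.69 (7.62 to 7.88), wrt-5 at 8.0 (6.89 to 7.13) and ptr-14 at 4.74 (5.56 to 5.90). There wrt-2 and wrt-5 were high and ptr-14 low. The part of these arrays' other differences in them was not tested.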

How the results depend on the processing

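The number of members called was small and depended on the setting, and on single arrays. Ligand-like genes called higher numbered 2 over all arrays, 0 under quantile normalization, median centring, the intensity trend, the filter on the dimmest 50%, the replicate block, an adjusted p under 0.01 or without mutant replicates 4 and 5, 1 without wild-type replicates 1 and 5, and 3 under array weights. Those called lower numbered 1 over all arrays, 0 under the trend, the filter at 50%, the replicate block, the mean of all probe sets or a threshold of 0.01, 5 under array weights, 4 without mutant replicates 4 and 5, 2 without wild-type replicates 1 and 5, and 7 without all 4. Patched-like genes called higher numbered 0 over all arrays, 1 under the filter at 33%, the trend, the replicate block or without the 4 arrays, and 2 under the filter at 50% or array weights. Those called lower numbered 0, and 1 without wild-type replicates 1 and 5 or without all 4. Leaving out 1 array at a time gave 0 to 2 ligand-like genes higher and 0 to 3 lower, and 0 to 2 patched-like genes higher and 0 to 1 lower. The median of ligand-like differences was 0.09 over all arrays, 0.01 to 0.13 without single arrays, 0.01 without the 4 and −0.08 without mutant replicates 4 and 5. That of patched-like genes was 0.17, and 0.1 to 0.2, 0.04 and 0.06. Across all probe sets, 1701 higher and 964 lower calls became 2969 and 2535 under array weights and 1069 and 370 with the replicate block. Lower calls were 1529 without wild-type replicates 1 and 5, 2522 without the 4 arrays, and 479 to 1609 without single arrays, while higher calls were 1176 to 1868. The lower calls were most numerous without wild-type replicate 5 (1609) and fewest without wild-type replicates 2, 3 and 4 (479, 493 and 480). The differences of grd-14 and grl-21 reversed to −0.74 each without the 4 arrays. Over all arrays and in 21 further fits, 65 of the 80 members were never called. The cause of these shifts was not tested. With the replicate block grl-14, grl-17 and grl-29 no longer passed (limma adjusted p = 0.094, 0.0929 and 0.148) and ptr-14 did (0.0411). The replicate number is only a name here, since deviations of same-numbered arrays correlated at only −0.175 to 0.0981. Array signal limits the 28 members that no array read above background.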
